A study of Mus musculus with 17 samples.

Results

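The antioxidant enzymes described here are 10 genes of peroxide, superoxide and thiol defence: Cat, Sod1, Sod2, Gpx1, Prdx1, Prdx5, Txnrd1, Hmox1, Gclm and Gsr. They were listed by function, with earlier results of these data known, and each was read from the array feature that carries its symbol alone, the brighter one where a gene has 2. Of the 10, 9 were measured among 19938 genes, and Prdx5 was not analysed here because no feature used here carries only its symbol.

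The 17 Affymetrix Mouse Gene 1.0 ST arrays hold RNA of myeloid cells from spleens of BALB/c females, pooled, enriched with magnetic beads for CD11b, a surface integrin of myeloid cells, and sorted by flow cytometry. Monocytic cells (Mo) are CD11b+ with much Ly-6C and little Ly-6G. Polymorphonuclear cells (PMN) are CD11b+ with much Ly-6G and little Ly-6C. Tumour-bearing mice had received 100000 Her-2/CT26 cells under the skin, a mouse colon carcinoma line with the receptor Her-2, and their cells were taken at 3 or 6 weeks, while naive mice received no tumour cells. There are 3 Mo arrays of mice at 6 weeks, 3 at 3 weeks and 3 of naive mice, and 2 PMN arrays at 6 weeks, 2 at 3 weeks and 4 of naive mice. All groups share the strain, sex, organ and the CD11b enrichment. The labels give no age, and nothing says that the arrays within a group are of different pools, so p-values cover only array-to-array spread, part of which may be technical. The study asked which genes change in the 2 subsets of myeloid-derived suppressor cells as tumours grow.

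Superoxide made by mitochondria or by the phagocyte oxidase is turned into hydrogen peroxide by superoxide dismutases. Catalase, glutathione peroxidases and peroxiredoxins then remove the peroxide, the last 2 families at the expense of glutathione and thioredoxin, which glutathione reductase and thioredoxin reductase restore with NADPH. Many of these genes are textbook targets of NRF2, a factor that binds antioxidant response elements with small MAF partners, and myeloid suppressor cells are known for making reactive oxygen species.

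The core of the antioxidant response element, TGACNNNGC, was searched on both strands in the RefSeq promoter windows of GRCm38.p6, each 300 bases long and spanning an annotated start. The 10 windows of 8 members were searched, the unmeasured Prdx5 among them. Gsr and Hmox1 had no window here and were not searched. A match was found in Gclm, Prdx1, Sod1 and 1 window of Txnrd1, and also in 12.4% of all 32851 windows. The 4 windows are shown because they hold the element for the gene with the largest change in Mo (Gclm), one that rose in both subsets at 6 weeks (Txnrd1), one that rose in Mo (Prdx1) and one that fell in PMN (Sod1). Capitals mark the matches, in Prdx1 also those to TGANTCA, the site of AP-1 factors, 1 of which overlaps the TGACNNNGC match. TGANTCA was found in 7.81% of all windows. A match is a description of these letters and says nothing of binding in these cells.
Gclm, chr3:122245307-122245606, plus strand: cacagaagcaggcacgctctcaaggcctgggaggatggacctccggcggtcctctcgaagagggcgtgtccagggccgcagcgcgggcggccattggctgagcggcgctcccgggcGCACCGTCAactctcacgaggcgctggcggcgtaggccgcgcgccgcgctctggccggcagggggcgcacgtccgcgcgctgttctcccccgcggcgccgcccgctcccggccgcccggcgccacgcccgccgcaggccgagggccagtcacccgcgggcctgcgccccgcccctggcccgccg
Txnrd1, chr10:82858956-82859255, plus strand: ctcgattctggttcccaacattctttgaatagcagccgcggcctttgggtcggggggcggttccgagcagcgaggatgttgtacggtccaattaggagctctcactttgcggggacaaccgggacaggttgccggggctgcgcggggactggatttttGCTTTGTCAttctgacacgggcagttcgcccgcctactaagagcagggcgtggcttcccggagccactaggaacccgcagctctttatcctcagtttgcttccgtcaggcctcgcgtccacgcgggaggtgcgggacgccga
Prdx1, chr4:116685349-116685648, plus strand: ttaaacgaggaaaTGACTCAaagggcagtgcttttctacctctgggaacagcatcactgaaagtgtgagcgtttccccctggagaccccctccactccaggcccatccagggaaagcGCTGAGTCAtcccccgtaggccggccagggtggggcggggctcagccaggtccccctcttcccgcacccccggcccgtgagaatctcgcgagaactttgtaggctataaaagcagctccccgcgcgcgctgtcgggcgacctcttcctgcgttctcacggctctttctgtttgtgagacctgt
Sod1, chr16:90220512-90220811, plus strand: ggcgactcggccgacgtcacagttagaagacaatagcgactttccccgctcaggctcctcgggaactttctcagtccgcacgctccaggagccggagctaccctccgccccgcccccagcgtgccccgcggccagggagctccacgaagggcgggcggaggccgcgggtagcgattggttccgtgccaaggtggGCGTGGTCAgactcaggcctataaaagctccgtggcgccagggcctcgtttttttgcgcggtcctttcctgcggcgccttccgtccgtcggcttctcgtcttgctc

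All levels are log2 of the deposited intensity, and changes are differences of their group means with the standard error (SE) of one limma fit over the 17 arrays. A gene passed at a two-sided Benjamini-Hochberg adjusted p below 0.05 over all 19938 genes. The chemokine receptors Ccr2 and Cxcr2 separated the gates in every array. Ccr2, a chemokine receptor of monocytes, lay between 12.06 and 12.45 in Mo arrays and between 6.07 and 6.78 in PMN arrays, while Cxcr2, the neutrophil chemokine receptor, lay between 5.46 and 7.25 in Mo arrays and between 12.44 and 12.70 in PMN arrays. The Mo and PMN arrays appear to have been normalized apart, so their levels are shown side by side and not tested against each other, and only the change over stages was compared between them. The granule genes Ngp and Ltf were higher in Mo at 6 weeks than in naive Mo, though still lower than in PMN at 6 weeks. Ngp, a protein of neutrophil granules, read 11.09, 12.69 and 10.55 in Mo at 6 weeks against 6.24, 7.68 and 8.17 in naive Mo. In PMN it read 11.66 to 12.31 in naive mice, and 13.04 and 12.98 at 6 weeks. Ltf, lactoferrin, read 9.05, 11.03 and 8.72 in Mo at 6 weeks against 6.87 to 7.32 in naive Mo, and 13.23 and 13.47 in PMN at 6 weeks. One Mo array at 6 weeks, replicate 2, stood apart in the granulocyte gene Ly6g, at 8.95 against 6.56 and 6.43 in the other Mo arrays at 6 weeks. In bulk RNA of this kind, fewer cells of a type and less RNA per cell cannot be told apart.

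In Mo of mice at 6 weeks, 6 of the 9 antioxidant genes were higher than in naive mice and 0 were lower. They were Gclm, Txnrd1, Gsr, Sod2, Gpx1 and Prdx1, with rises of 1.43-fold to 4.2-fold. Of all 19938 genes, 46.2% passed in this comparison, 21.8% of them higher and 24.4% lower as shares of all genes. In PMN at 6 weeks the same count of 6 was higher, in Cat, Sod2, Gpx1, Txnrd1, Gclm and Gsr, and Sod1 was lower, against a background of 65.4% of all genes, 25.5% higher and 40.0% lower. At 3 weeks, 1 of the 9 was higher in Mo, where 6.03% of all genes passed (5.20% higher and 0.833% lower), and 0 of the 9 passed in PMN, where the background was 0%. The median change of the 9 genes was 0.55 in Mo and 0.54 in PMN at 6 weeks, where that of all genes was -0.09 in Mo and -0.18 in PMN. The Mo count was 3 after joint quantile normalization of the 17 arrays, where 5241 of 19938 genes passed, 3487 of them higher. When arrays were left out one at a time it was between 3 and 6, where 4475 to 10640 of all genes passed.

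**Figure D1:**
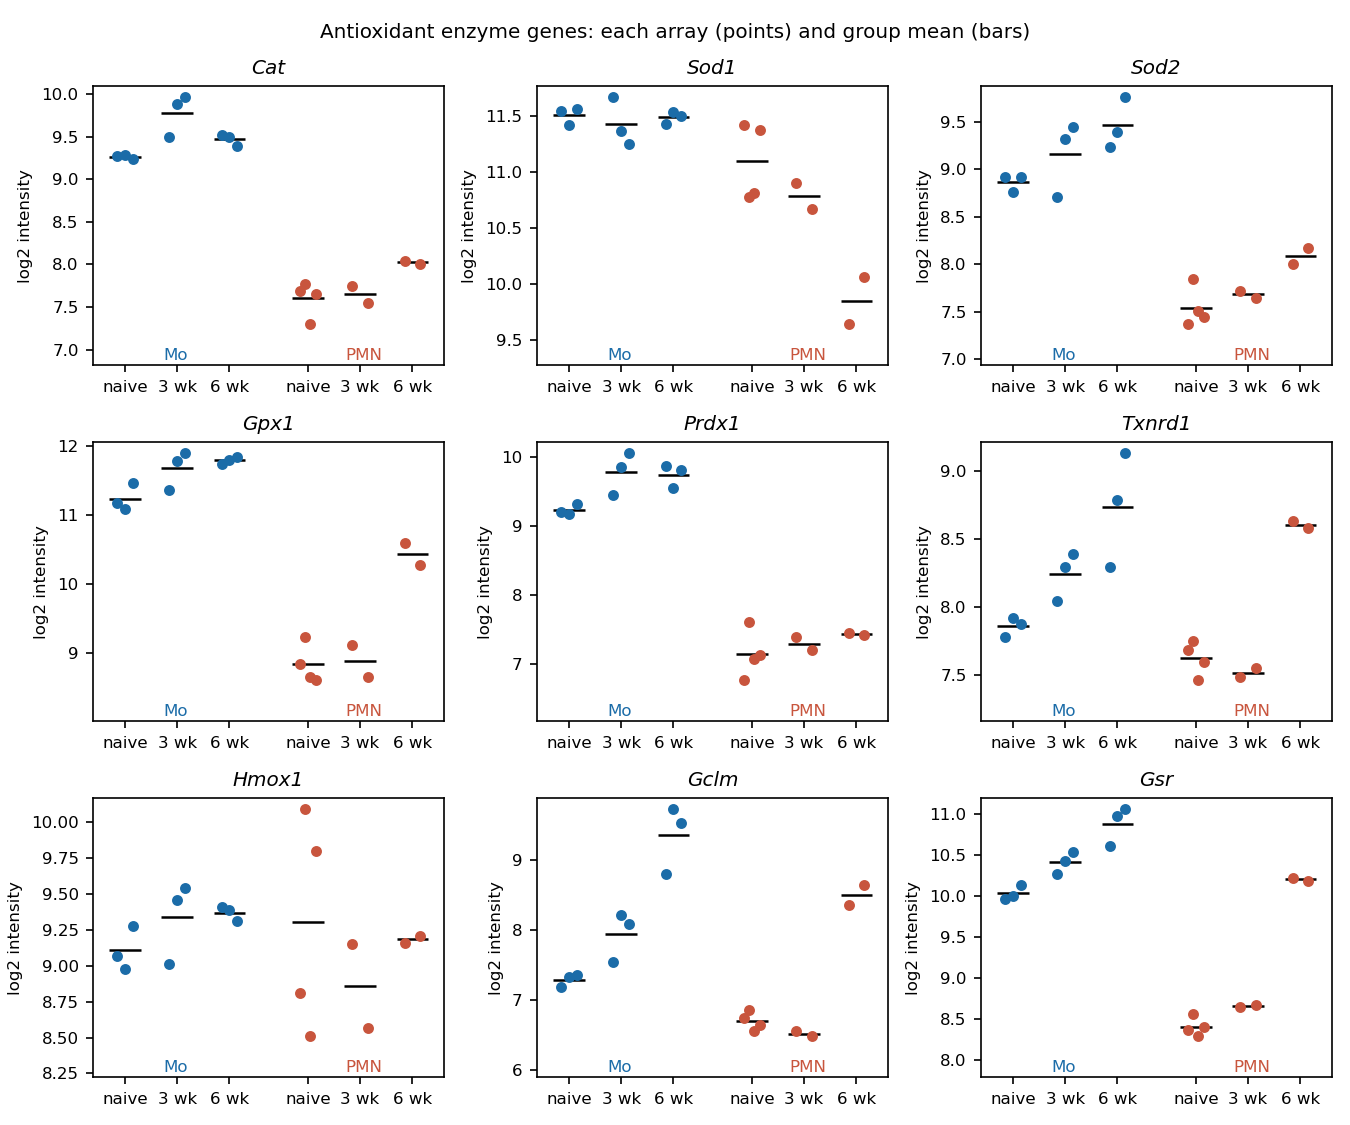
Log2 intensity of the 9 antioxidant genes in each of the 17 arrays, by stage (naive, 3 weeks, 6 weeks) in Mo (blue) and PMN (red); points are arrays and bars are group means. The scale differs between panels, and the panels of Gclm, Gsr and Txnrd1 show the arrays at 6 weeks above all naive arrays in both subsets, while Sod1 is lowest in the 2 PMN arrays at 6 weeks.

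**Figure D2:**
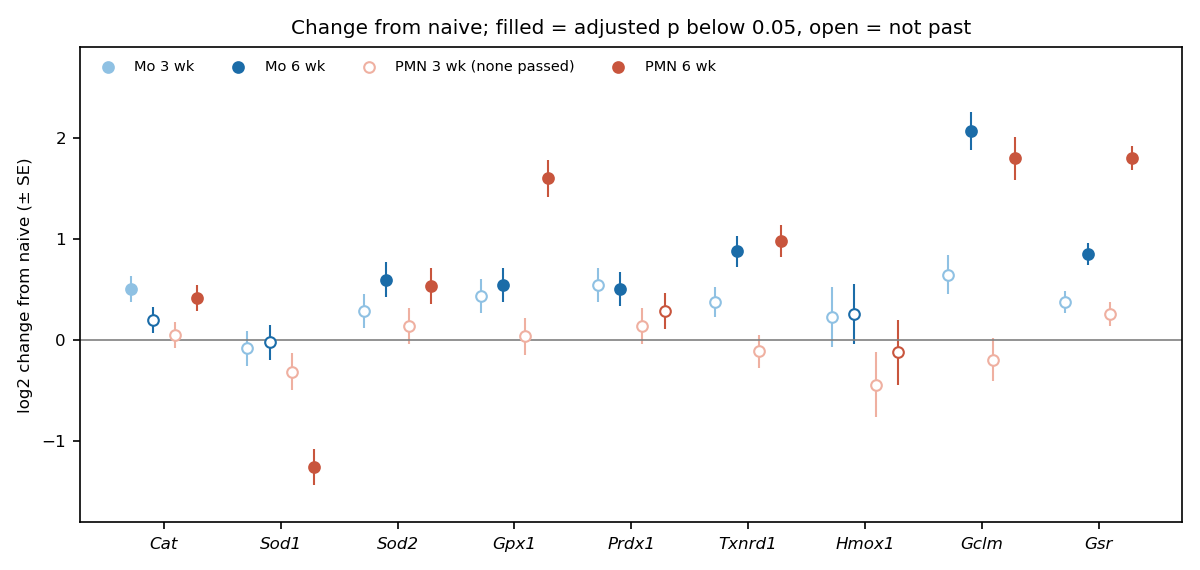
Change from naive (log2, points, with SE as vertical lines) of the 9 genes at 3 and 6 weeks in Mo (blue) and PMN (red). Filled points passed at an adjusted p below 0.05; Gclm has the largest change in Mo at 2.07, and Sod1 is the only gene with a fall that passed, by 1.25 in PMN at 6 weeks.

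Gclm and Gsr supply and recycle glutathione, and Gclm had the largest change of the 9 genes in Mo at 6 weeks. Gclm (Entrez 14630, chr3:122245487-122267215) encodes the modifier subunit of glutamate-cysteine ligase, the rate-limiting enzyme of glutathione synthesis. In Mo it read 7.18, 7.33 and 7.36 in naive mice, 7.54, 8.21 and 8.08 at 3 weeks, and 8.81, 9.73 and 9.54 at 6 weeks. The 3 groups of Mo arrays did not overlap, and each stage lay above the one before it. The change at 6 weeks was 2.07 ± 0.19 (SE, n = 3 and 3 arrays, limma adjusted p = 1.29e-06), and 1.42 ± 0.19 between 6 and 3 weeks (limma adjusted p = 0.000102), in which 2 of the 9 genes passed against 7.51% of all genes (4.38% higher and 3.13% lower). With the replicate number as a block in the fit, 3 of the 9 passed in that comparison, Txnrd1 being the third, against 11.9% of all genes. At 3 weeks the difference from naive, 0.65 ± 0.19, missed the threshold (limma adjusted p = 0.0548), but passed without Mo 3-week replicate 1 (0.85, adjusted p = 0.00389).

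In PMN, Gclm read 6.74, 6.86, 6.56 and 6.64 in naive mice, 6.55 and 6.48 at 3 weeks, and 8.36 and 8.64 at 6 weeks. The arrays at 6 weeks stood apart from both earlier stages, which lay next to each other. The change from naive was 1.80 ± 0.21 at 6 weeks (limma adjusted p = 2.49e-06) and -0.19 ± 0.21 at 3 weeks (limma adjusted p = 1). From 3 to 6 weeks, where 6 of the 9 genes passed against 58.7% of all genes (23.7% higher and 34.9% lower), it was 1.98 ± 0.24. The changes of Gclm in Mo and PMN from naive to 6 weeks differed by 0.27 ± 0.28, a difference that did not pass (limma adjusted p = 0.594).

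Gsr (Entrez 14782, chr8:33653238-33698162), glutathione reductase, returns oxidized glutathione to its reduced form. Its Mo arrays read 9.97, 10 and 10.13 in naive mice, 10.27, 10.43 and 10.54 at 3 weeks, and 10.61, 10.98 and 11.06 at 6 weeks. Its PMN arrays read 8.36, 8.56, 8.29 and 8.40 in naive mice, 8.65 and 8.67 at 3 weeks, and 10.22 and 10.19 at 6 weeks. No 2 stages overlapped in either subset, but in PMN the step between naive and 3 weeks was small beside the step to 6 weeks. At 6 weeks Gsr was higher than in naive mice by 0.85 ± 0.11 in Mo (limma adjusted p = 4.3e-05) and by 1.80 ± 0.12 in PMN (limma adjusted p = 1.39e-08), the smallest adjusted p of the 9 genes in that comparison. The change in Mo minus the change in PMN was -0.96 ± 0.16 (limma adjusted p = 0.000705). Such a difference passed for 3 members, Gsr, Gpx1 and Sod1, against 17.5% of all genes (6.47% above 0 and 11.0% below).

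The 3-week value of Gsr in PMN, 0.26 ± 0.12, did not pass (limma adjusted p = 1). In Mo it was 0.38 ± 0.11 at 3 weeks (limma adjusted p = 0.0543), and 0.45 without Mo 3-week replicate 1 (limma adjusted p = 0.00894). Between 6 and 3 weeks in Mo, Gsr was higher by 0.47 ± 0.11 (limma adjusted p = 0.013). That call ended without Mo 3-week replicate 1 (0.40, adjusted p = 0.0522), without 6-week replicate 2 (0.42, adjusted p = 0.0764) and without 6-week replicate 3 (0.38, adjusted p = 0.095).

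Peroxide is removed by catalase, glutathione peroxidase and peroxiredoxin, which draw on different reductants. Gpx1 (Entrez 14775, chr9:108339080-108340342), the cytosolic glutathione peroxidase, read 11.17, 11.08 and 11.46 in Mo of naive mice, 11.36, 11.78 and 11.89 at 3 weeks, and 11.73, 11.79 and 11.84 at 6 weeks. In PMN it read 8.84, 9.24, 8.66 and 8.61 in naive mice, 9.12 and 8.65 at 3 weeks, and 10.59 and 10.28 at 6 weeks. Gpx1 was high in all Mo arrays, and those at 6 weeks did not overlap the naive ones. In PMN the 2 arrays at 6 weeks lay far above the 6 others. In Mo the change from naive to 3 weeks was 0.44 ± 0.17 (limma adjusted p = 0.103). From 3 to 6 weeks it was 0.11 ± 0.17 (limma adjusted p = 0.797). The rise from naive to 6 weeks was 0.55 ± 0.17 in Mo (limma adjusted p = 0.0191) and 1.60 ± 0.18 in PMN (limma adjusted p = 2.7e-06). Over the same span the change in Mo minus that in PMN was -1.05 ± 0.25 (limma adjusted p = 0.00832).

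The Gpx1 call in Mo at 6 weeks ended after joint quantile normalization (0.36, adjusted p = 0.116). It also ended without naive replicate 1 (adjusted p = 0.0663), naive replicate 2 (adjusted p = 0.0773), 6-week replicate 2 (adjusted p = 0.053) or 6-week replicate 3 (adjusted p = 0.0659). The call on the difference between the subsets ended without PMN 6-week replicate 1 (-0.89, adjusted p = 0.0663).

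Cat (Entrez 12359, chr2:103453904-103485153), catalase, splits peroxide into water and oxygen without a cofactor thiol. In Mo it read 9.27, 9.28 and 9.24 in naive mice, 9.49, 9.88 and 9.96 at 3 weeks, and 9.52, 9.49 and 9.39 at 6 weeks. Its highest Mo arrays were 2 of those at 3 weeks, and all arrays of tumour-bearing mice lay above the naive ones. At 3 weeks Cat was the 1 member that passed in Mo, higher by 0.51 ± 0.13 (limma adjusted p = 0.0338), while at 6 weeks it differed from naive by 0.20 ± 0.13 (limma adjusted p = 0.183). The call at 3 weeks ended under 7 alternatives, among them leaving out naive replicate 1 (adjusted p = 0.143), naive replicate 2 (adjusted p = 0.132), 3-week replicate 2 (adjusted p = 0.177) or 3-week replicate 3 (adjusted p = 0.241).

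In PMN, Cat read 7.69, 7.77, 7.30 and 7.65 in naive mice, 7.75 and 7.55 at 3 weeks, and 8.04 and 8.01 at 6 weeks. The 2 arrays at 6 weeks lay above the other 6, which overlapped. Cat was higher at 6 weeks than in naive mice by 0.42 ± 0.13 (limma adjusted p = 0.011) and than at 3 weeks by 0.38 ± 0.15 (limma adjusted p = 0.045). The first call ended after joint quantile normalization (0.24, adjusted p = 0.167), without PMN 6-week replicate 1 (adjusted p = 0.0695) and without PMN 6-week replicate 2 (adjusted p = 0.0523). The second ended without any 1 of the 4 arrays it compares (adjusted p = 0.0519 to 0.233). From 3 to 6 weeks the change of Cat in Mo minus that in PMN was -0.68 ± 0.20 (limma adjusted p = 0.0169). Such a difference passed for 4 members, Cat, Sod1, Gpx1 and Gsr, against 29.2% of all genes (11.9% above 0 and 17.3% below). The Cat call ended after joint quantile normalization (adjusted p = 0.0612), without PMN 3-week replicate 2 (adjusted p = 0.085) and without PMN 6-week replicate 1 (adjusted p = 0.0566).

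Prdx1 (Entrez 18477, chr4:116685599-116700000), a peroxiredoxin that thioredoxin recharges, read 9.21, 9.18 and 9.32 in Mo of naive mice, 9.45, 9.86 and 10.06 at 3 weeks, and 9.87, 9.55 and 9.82 at 6 weeks. In PMN it read 6.77, 7.61, 7.08 and 7.14 in naive mice, 7.40 and 7.20 at 3 weeks, and 7.46 and 7.43 at 6 weeks. Both groups of tumour-bearing mice lay above naive mice in Mo and overlapped each other, while in PMN the naive arrays spread across all the others. Prdx1 was higher in Mo at 6 weeks by 0.51 ± 0.17 (limma adjusted p = 0.0265), and its difference in PMN, 0.29 ± 0.18, did not pass (limma adjusted p = 0.168). The difference between these changes was 0.22 and did not pass either. The second feature of Prdx1 averaged 9.95 ± 0.14 in Mo at 6 weeks and 9.32 ± 0.11 in naive Mo (SD, n = 3 each).

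The Prdx1 call in Mo at 6 weeks is one of the weaker ones. It ended after joint quantile normalization (0.32, adjusted p = 0.238) and with intensities below 64 raised to 64 (adjusted p = 0.0612). It also ended without naive replicate 1 (adjusted p = 0.0737), naive replicate 2 (adjusted p = 0.0776), 6-week replicate 1 (adjusted p = 0.0597) or 6-week replicate 3 (adjusted p = 0.0875). With the mean of both features it was 0.57 (adjusted p = 0.0156).

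Txnrd1 (Entrez 50493, chr10:82833951-82897724), the cytosolic thioredoxin reductase, recharges thioredoxin with electrons of NADPH. It read 7.78, 7.92 and 7.87 in Mo of naive mice, 8.04, 8.29 and 8.39 at 3 weeks, and 8.29, 8.79 and 9.13 at 6 weeks. In PMN it read 7.68, 7.75, 7.46 and 7.59 in naive mice, 7.48 and 7.55 at 3 weeks, and 8.63 and 8.58 at 6 weeks. Mo arrays were higher at each later stage, those of 3 and 6 weeks overlapping, and PMN arrays stood apart at 6 weeks alone. Between 6 and 3 weeks in Mo the difference of 0.50 ± 0.15 did not pass (limma adjusted p = 0.06), but did with the replicate block (0.50, adjusted p = 0.0127). The rise at 6 weeks was 0.88 ± 0.15 in Mo (limma adjusted p = 0.000483) and 0.98 ± 0.16 in PMN (limma adjusted p = 0.000101), and the 2 rises differed by -0.10 ± 0.22 (limma adjusted p = 0.812). Calls of Txnrd1, Gclm and Gsr at 6 weeks against naive held in both subsets under every alternative tried.

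Superoxide is handled in the cytosol by Sod1 and in mitochondria by Sod2, and the 2 genes went opposite ways in PMN. Sod1 (Entrez 20655, chr16:90220762-90226333), the copper and zinc dismutase, read 11.55, 11.42 and 11.57 in Mo of naive mice, 11.67, 11.37 and 11.25 at 3 weeks, and 11.43, 11.54 and 11.50 at 6 weeks. In PMN it read 11.42, 10.78, 10.81 and 11.38 in naive mice, 10.90 and 10.67 at 3 weeks, and 9.64 and 10.06 at 6 weeks. The Mo arrays of all stages overlapped, and in PMN the 2 arrays at 6 weeks lay below the other 6. Sod1 was lower in PMN at 6 weeks than in naive mice by 2.37-fold (-1.25 ± 0.18, limma adjusted p = 2.49e-05). In Mo the difference was -0.02 ± 0.17 (limma adjusted p = 0.909).

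The changes of Sod1 in Mo and PMN from naive to 6 weeks differed by 1.22 ± 0.24 (limma adjusted p = 0.00237), and those from 3 to 6 weeks by 0.99 ± 0.27 (limma adjusted p = 0.0109). The last call ended without PMN 6-week replicate 1 (0.78, adjusted p = 0.074). The naive PMN arrays of Sod1 fell into a high pair, replicates 1 and 4, and a low pair, replicates 2 and 3, and even the low pair lay above both arrays at 6 weeks.

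Sod2 (Entrez 20656, chr17:13007839-13018119), the manganese dismutase of mitochondria, read 8.92, 8.76 and 8.92 in Mo of naive mice, 8.71, 9.32 and 9.45 at 3 weeks, and 9.24, 9.39 and 9.76 at 6 weeks. In PMN it read 7.37, 7.85, 7.51 and 7.44 in naive mice, 7.72 and 7.65 at 3 weeks, and 8.0 and 8.17 at 6 weeks. The arrays at 6 weeks lay above the naive ones in both subsets, while those at 3 weeks overlapped them. The rise at 6 weeks was 0.60 ± 0.17 in Mo (limma adjusted p = 0.0121) and 0.54 ± 0.18 in PMN (limma adjusted p = 0.0156). Both calls ended after joint quantile normalization (0.40 in Mo with adjusted p = 0.0659, and 0.36 in PMN with adjusted p = 0.0758), and 1 array decided each. Without Mo 6-week replicate 3 the adjusted p was 0.0749, and without PMN 6-week replicate 2 it was 0.123.

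Hmox1 (Entrez 15368, chr8:75093618-75100593), haem oxygenase 1, breaks down haem and is strongly expressed in the spleen's red pulp macrophages. In Mo it read 9.07, 8.98 and 9.28 in naive mice, 9.01, 9.46 and 9.54 at 3 weeks, and 9.41, 9.39 and 9.31 at 6 weeks. In PMN it read 8.81, 10.09, 8.51 and 9.80 in naive mice, 9.15 and 8.57 at 3 weeks, and 9.16 and 9.21 at 6 weeks. The naive PMN arrays span the values of every other group, with replicates 2 and 4 far above replicates 1 and 3. Hmox1 differed from naive by 0.26 ± 0.30 in Mo (limma adjusted p = 0.471) and by -0.12 ± 0.32 in PMN at 6 weeks (limma adjusted p = 0.754), and its direction in PMN turned to 0.08 with each array centred on its median and to 0.15 without naive replicate 2 and 0.05 without naive replicate 4.

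The summed intensity of 9 tissue macrophage markers moved with Hmox1 in the naive PMN arrays. It was 1679, 2867, 1475 and 2434 in naive replicates 1 to 4, 1846 and 1526 at 3 weeks, and 2393 and 2271 at 6 weeks. Vcam1, an adhesion molecule of red pulp macrophages, read 8.87, 9.67, 8.33 and 9.59 in the 4 naive PMN arrays, and Spic, their defining transcription factor, read 6.91, 7.57, 6.83 and 7.61. The same 2 arrays were high in all 3 measures. The pattern was not particular to macrophage markers. The 5 eosinophil and basophil markers summed to 613, 821, 594 and 738 in naive replicates 1 to 4. Ccr3 among them read 7.71, 8.73, 7.66 and 8.45. The part of any of these cells in Hmox1 was not tested. The 2 arrays at 6 weeks had macrophage marker sums near those of the high naive pair, with Hmox1 between the pairs. Their eosinophil and basophil sums, 667 and 692, also lay between the pairs.

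**Figure D3:**
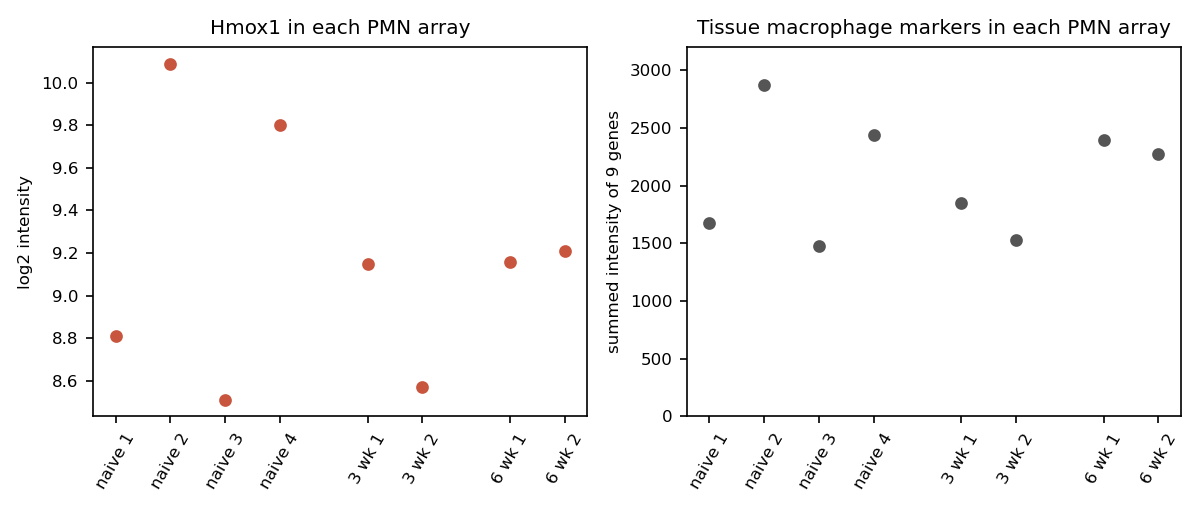
Hmox1 (log2 intensity, left) and the summed intensity of 9 tissue macrophage markers (right) in each of the 8 PMN arrays. Naive replicates 2 and 4 are high in both panels, at 10.09 and 9.80 for Hmox1 and 2867 and 2434 for the markers.

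At 3 weeks the count in Mo, 1 of 9, moved with single arrays and with the fit. It was 0 without naive replicate 1 or 2, or without 3-week replicate 2 or 3. The 3-week replicate 1 was the lowest of the 3 arrays in Cat, Sod2, Gpx1, Prdx1, Txnrd1, Hmox1, Gclm and Gsr. It also differed in cell markers. Its B cell markers summed to 1054 against 504 and 594 in replicates 2 and 3, and its proliferation genes to 618 against 986 and 1002. The part of this in the members was not tested. Without 3-week replicate 1, 7 of the 9 genes passed as higher (Cat, Gclm, Gpx1, Gsr, Prdx1, Sod2 and Txnrd1). So did 22.7% of all genes, with 44.7% passing in either direction. In PMN at 3 weeks, 0 of 19938 genes passed with limma, 374 had an unadjusted p below 0.05, and 13 passed with intensities below 64 raised to 64. Without that floor, the changes of the 9 members lay between -0.44 and 0.26 on the log2 scale, with Gsr at the top and Hmox1 at the bottom. The changes of Mo and PMN from naive to 3 weeks differed for 0 of the 9 genes against 0.00502% of all genes. A change that did not pass here is not shown to be absent.

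Other cell programmes moved over the same stages. At 6 weeks the summed intensity of 3 proliferation genes was 4145 to 7515 in Mo against 374 to 1041 in naive Mo, and 2986 to 3671 in PMN against 393 to 443 in naive PMN. All 5 early granulocyte genes together, Mpo and Elane among them, summed to 4669 to 12730 in Mo at 6 weeks against 440 to 595 in naive Mo, and to 616 to 736 in PMN against 311 to 361. The 8 measured neutrophil markers summed to 3294 to 11661 in Mo at 6 weeks against 1739 to 2142 in naive Mo, and to 51526 to 54525 in PMN against 24690 to 26336. Ngp was the brightest of the 8 in each Mo array at 6 weeks. In Mo, 5 of the 8 were higher and 1 lower (all genes 21.8% and 24.4%). Csf3r read 10.10, 9.76 and 9.76 at 6 weeks against 10.15, 10.22 and 10.35 in naive Mo. Retnlg and Mmp9 lay above all naive Mo arrays in 6-week replicate 2 alone. The 8 measured erythroid markers summed to 1159 to 5890 in Mo at 6 weeks against 1007 to 1659, and to 1444 to 1787 in PMN against 927 to 962. The 4 measured B cell markers summed to 415 to 556 in Mo at 6 weeks against 608 to 1227, and to 629 to 643 in PMN against 1962 to 2164. In Mo at 6 weeks the 9 tissue macrophage markers summed to 1600 to 2645 against 3717 to 4598, a sum carried by Adgre4, which read 10.78, 9.22 and 9.75 in Mo at 6 weeks against 11.24, 11.51 and 11.73 in naive Mo. Without Adgre4 the other 8 summed to 772 to 1005 against 1130 to 1291. The 5 T and NK cell markers summed to 291 to 364 against 624 to 957. The part of these cells and stages in the changes of the antioxidant genes was not tested. Without the Mo array at 6 weeks with the highest Ly6g and neutrophil sum, replicate 2, Gclm was 1.88 higher than in naive mice (limma adjusted p = 1.36e-05), Gsr 0.80 (adjusted p = 0.000494), Txnrd1 0.85 (adjusted p = 0.00331), Sod2 0.63 (adjusted p = 0.029) and Prdx1 0.61 (adjusted p = 0.0315). The Gpx1 call ended without it (0.55, adjusted p = 0.053).

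Within each subset the order of the stages differed between genes. For Gclm in Mo it ran from 6 weeks (9.36 ± 0.49, SD) through 3 weeks (7.94 ± 0.35) to naive (7.29 ± 0.10), and for Gsr from 6 weeks (10.88 ± 0.24) through 3 weeks (10.41 ± 0.14) to naive (10.03 ± 0.09), with no overlap between neighbours. Cat in Mo ran from 3 weeks (9.78 ± 0.25) through 6 weeks (9.47 ± 0.07) to naive (9.26 ± 0.02), with an overlap between 3 and 6 weeks. In PMN the means at 6 weeks were the highest of the 3 stages for Cat, Sod2, Gpx1, Prdx1, Txnrd1, Gclm and Gsr. The naive and 3-week arrays of PMN overlapped for all of these except Gclm and Gsr. Every Mo array lay above every PMN array for Cat, Sod2, Gpx1 and Prdx1, a comparison not tested because the subsets appear to have been normalized apart.

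The 9 genes sit in a wider system of 55 redox genes in 7 lists, of which 53 were measured. In Mo at 6 weeks, 29 were higher and 4 lower than in naive mice (median change 0.40), where 21.8% of all genes were higher and 24.4% lower. In PMN at 6 weeks 22 were higher and 10 lower (median 0.19), where 25.5% of all genes were higher and 40.0% lower. At 3 weeks 12 were higher and 0 lower in Mo, against 5.20% and 0.833% of all genes, and 0 passed in PMN, against 0%. From naive to 6 weeks the change in Mo lay above that in PMN for 11 of them and below it for 10, against 6.47% and 11.0% of all genes. Counts of the wider lists are given for the deposited scaling only. Under that scaling 47.2% of all calls in Mo at 6 weeks were higher, against 80.8% with arrays centred and 66.5% after joint quantile normalization.

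Both reductases run on NADPH. Of 7 measured genes that supply it, 6 were higher and 1 lower in Mo at 6 weeks (all genes 21.8% and 24.4%), and 5 higher and 1 lower in PMN (all genes 25.5% and 40.0%). Tkt, transketolase of the pentose phosphate pathway, averaged 10.50 ± 0.29 in Mo at 6 weeks and 9.35 ± 0.25 in naive Mo (SD, n = 3 each), a rise of 1.15 ± 0.17 (SE, limma adjusted p = 9.73e-05). In PMN it averaged 10.99 ± 0.05 at 6 weeks (n = 2) and 8.63 ± 0.15 in naive mice (n = 4), a rise of 2.37 ± 0.18 (limma adjusted p = 3.57e-08). Idh1, the cytosolic isocitrate dehydrogenase, rose by 0.33 ± 0.12 in Mo (limma adjusted p = 0.0299) and by 2.30 ± 0.12 in PMN (limma adjusted p = 3e-09).

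Among other glutathione genes, 4 of 9 were higher and 0 lower in Mo at 6 weeks (all genes 21.8% and 24.4%), and 2 were higher and 3 lower in PMN. The PMN counts lie near the shares of all genes, 25.5% and 40.0%. Mgst2, a microsomal glutathione transferase, was higher by 1.49 ± 0.37 in Mo (limma adjusted p = 0.00551), where its arrays spread from 7.0 to 9.11, and by 2.94 ± 0.39 in PMN, a 7.66-fold rise (limma adjusted p = 1.25e-05). Mgst1, its relative, was higher by 0.68 ± 0.15 in Mo and 1.44 ± 0.16 in PMN. In the thioredoxin and glutaredoxin list, 8 of 11 were higher and 1 lower in Mo (all genes 21.8% and 24.4%), and 4 were higher and 2 lower in PMN (all genes 25.5% and 40.0%). Glrx, a glutaredoxin that removes glutathione from proteins, rose by 1.14 ± 0.19 in Mo and 1.54 ± 0.20 in PMN, and Msra, which repairs oxidized methionine, rose by 0.31 ± 0.10 in Mo and 1.21 ± 0.10 in PMN.

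Other peroxide genes were higher in 5 of 7 and lower in 1 in Mo at 6 weeks, and higher in 3 and lower in 2 in PMN. The shares of all genes were 21.8% and 24.4% in Mo, and 25.5% and 40.0% in PMN. Gpx3, the secreted glutathione peroxidase, rose by 1.68 ± 0.14 in Mo (limma adjusted p = 3.49e-07) and read 0.05 ± 0.15 in PMN (limma adjusted p = 0.775). Prdx3, the mitochondrial peroxiredoxin, rose by 1.06 ± 0.18 in Mo and 1.35 ± 0.19 in PMN. The other superoxide genes did not rise. Sod3, the extracellular dismutase, fell by 0.40 in Mo (limma adjusted p = 0.0364) and by 0.43 in PMN (limma adjusted p = 0.024). Its levels were close to the intensity of 64 used as a floor. They averaged 6.33 in naive Mo and 5.93 at 6 weeks, and 6.26 in naive PMN and 5.84 at 6 weeks (log2). Ccs, the chaperone that loads copper into Sod1, was at 0.09 ± 0.09 in Mo (limma adjusted p = 0.402) and fell by 0.41 in PMN (limma adjusted p = 0.0016), where Sod1 itself was lower.

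Of 9 haem and iron genes, which include the metallothioneins here, 3 were higher and 0 lower in Mo at 6 weeks, and 2 higher and 0 lower in PMN. The higher counts lie near the shares of all genes in both subsets, 21.8% in Mo and 25.5% in PMN. The shares of all genes that were lower were 24.4% in Mo and 40.0% in PMN. Mt1, a metal-binding metallothionein, rose by 1.97 ± 0.20 in Mo (limma adjusted p = 2.34e-06) and read -0.01 ± 0.21 in PMN (limma adjusted p = 0.964). Nqo1, a quinone reductase and textbook NRF2 target, read 0.16 ± 0.15 in Mo (limma adjusted p = 0.383) and rose by 0.85 ± 0.16 in PMN (limma adjusted p = 0.000295). Nqo1 was dim in every group. It averaged 5.03 in naive PMN and 5.88 in PMN at 6 weeks. Its highest array, at 5.98 on the log2 scale, lay below the intensity of 64 used as a floor. Of 8 regulators, 3 were higher in Mo and 6 in PMN, with 0 lower in each. The shares of all genes were 21.8% higher and 24.4% lower in Mo, and 25.5% and 40.0% in PMN. Mafg, a small MAF partner of NRF2, rose by 0.64 ± 0.12 in Mo and 1.06 ± 0.12 in PMN, and Hif1a, the oxygen-sensitive factor, rose by 0.60 ± 0.12 in Mo and 0.91 ± 0.13 in PMN.

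**Figure D4:**
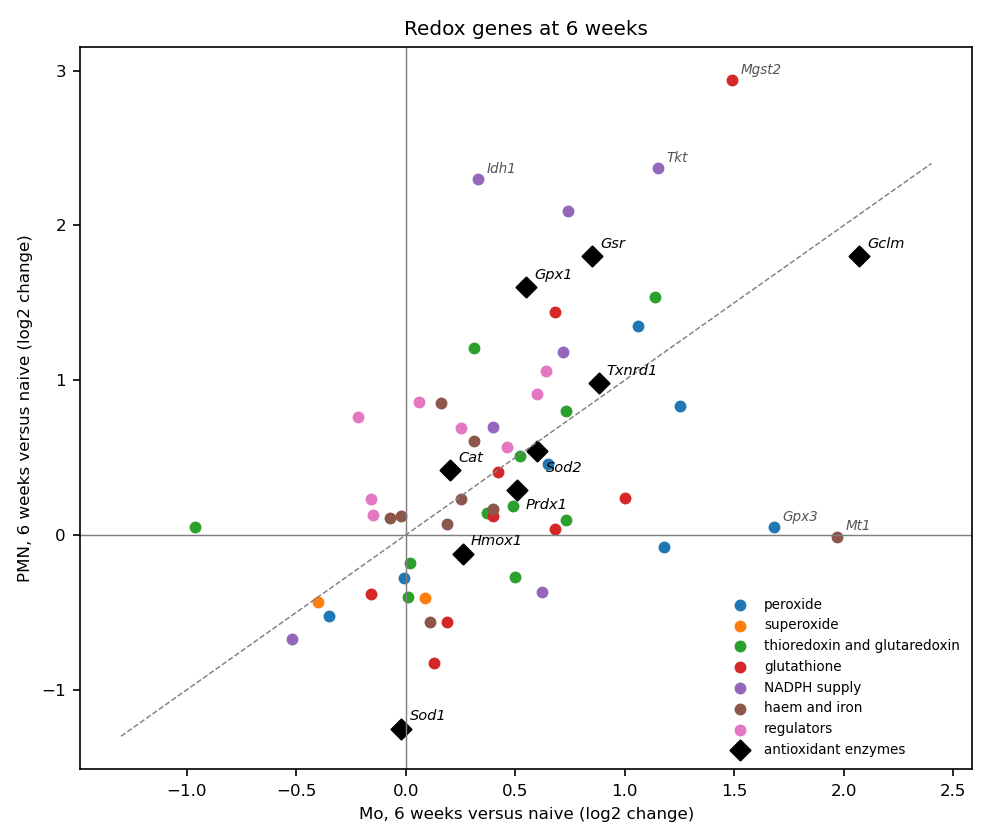
Change from naive to 6 weeks in Mo (horizontal) and PMN (vertical), both log2, for the 9 antioxidant genes (black diamonds) and 53 wider redox genes coloured by list; the dashed line marks equal change. Gsr, Gpx1, Tkt, Idh1 and Mgst2 lie above the line, Gclm and Txnrd1 near it, and Sod1 near 0 in Mo with a fall of 1.25 in PMN.

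The genes whose 4 changes from naive lay nearest to those of a member were found by the root mean square difference on the log2 scale, over 4 changes. Nearest to Gclm were Anp32e (0.09) and Nucks1 (0.12), and nearest to Gsr were Ppib (0.10) and Sh3bgrl3 (0.11). Nearest to Gpx1 were Adssl1 (0.04) and Mocos (0.05). Nearest to Sod1 were Zfp318 (0.17), with a change of -1.18 in PMN at 6 weeks, and Nlrp3 (0.18), with -1.09 there.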

How the data were processed

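Linear intensities were deposited for 17 Affymetrix arrays, made by the authors with RMA (version not stated), per the submitters' processing notes. RMA subtracts background, quantile normalizes and summarises probes. The values ran from 9.76 to 32095, and log2 was taken of them. Upper quartiles were 254 to 298 in Mo and 183 to 202 in PMN arrays, and the median number of distinct values shared by 2 arrays was 942.5 within Mo, 251 within PMN and 146 across, so the subsets were treated as normalized apart. Of 35557 features, 21789 carried 1 symbol. The feature with the highest mean stood for each of 19938 genes, with no filter on dim features. A limma fit (limma 3.58.1, R 4.3.3, moderated by eBayes) gave each of the 6 groups its own mean in one model. The 6 stage comparisons and 3 differences of changes were adjusted separately. Named wider genes are the 2 with the largest change that passed at 6 weeks in each list, and like genes are named for members changed at least 2-fold. The fit was tested on simulated data. The members and lists were chosen with earlier results of these data known. The labels give no batch or date. The number of arrays, 2 to 4 a group, limits the precision. Alternatives covered scaling, dim values, samples, weights, variance model, features, replicate numbers and each array left out. The labels do not link replicate numbers across groups. Deviations from group means of same-numbered arrays correlated above 0.1 in all 3 pairs of Mo between 3 and 6 weeks (0.284 to 0.628), so the fit with the number as a block stands beside that comparison where it changed a call or count. In the other comparisons not every pair did (lowest -0.089 in Mo and -0.461 in PMN), and the numbers were not treated as pairs.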

Additional observations from a re-analysis of the deposited data

Results flagged for a closer look

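For 4 of the 9 antioxidant genes, the change in Mo and the change in PMN differed by limma's test of the difference itself (Benjamini-Hochberg over 19938 genes). From naive to 6 weeks, the change in Mo minus that in PMN was 1.22 for Sod1, -1.05 for Gpx1 and -0.96 for Gsr. For Gpx1 and Gsr both subsets rose, PMN by more. For Sod1 the fall was in PMN. From 3 to 6 weeks it was 0.99 for Sod1, -0.68 for Cat, -1.45 for Gpx1 and -1.08 for Gsr. Between these stages 17.3% of all genes had a change in Mo below that in PMN and 11.9% one above it. Of the 7 differences, 3 ended under at least 1 alternative, Gpx1 from naive to 6 weeks and Cat and Sod1 from 3 to 6 weeks. No cause was tested.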

How the results depend on the processing

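Over 1314 values of single genes under other settings, 1220 kept their side of the threshold, 42 dropped below it, 52 rose past it and 0 reversed. Of the 1220, 39 changed sign with neither value past the test. Of 29 calls, 18 held under every alternative and 11 ended under at least 1. The causes were not tested. Depth here is set by 2 to 4 arrays a group. Centring each array on its median shifted all changes by 0.19 in Mo and 0.19 in PMN at 6 weeks, 0.14 in Mo at 3 weeks, 0.21 in PMN from 3 to 6 weeks, and by 0.15 and -0.16 in the differences from naive to 3 and from 3 to 6 weeks. After centring Sod1 still fell by 1.05 in PMN at 6 weeks, and Gclm was 2.25 higher in Mo and 1.99 in PMN. The share of calls that were higher was 47.2% in Mo at 6 weeks (80.8% centred, 66.5% joint quantile), 86.2% in Mo at 3 weeks (97.9% centred), 38.9% in PMN at 6 weeks (62.2% centred), 40.4% in PMN from 3 to 6 weeks (68.4% centred, 51.6% joint quantile), 40.8% in the difference from 3 to 6 weeks (18% centred), and 100% of 1 call in the difference from naive to 3 weeks (86.7% joint quantile).

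Counts of all genes moved over 1.5 times as follows. Mo 6 weeks versus naive (9204): joint quantile 5241, dim genes left out 4851, arrays of the subset only 5584, array weights 14171, arrays left out 4475 to 10640. Mo 3 weeks versus naive (1202): joint quantile 354, floor at 64 115, dim out 1870, subset only 2, weights 15177, replicate block 5302, arrays left out 16 to 8911. Mo 6 versus 3 weeks (1497): subset only 877, weights 7809, replicate block 2374, arrays left out 1000 to 2803. PMN 6 weeks versus naive (13047): dim out 6347. PMN 3 weeks versus naive (0): floor 13. PMN 6 versus 3 weeks (11694): centred 7720, dim out 5995, arrays left out 7627 to 9166. Differences of changes, naive to 6 weeks (3487): centred 2260, weights 6840, arrays left out 2098 to 3683. Naive to 3 weeks (1): joint quantile 15, floor 5, dim out 12, weights 8561, mean of features 3, replicate block 1027, arrays left out 0 to 3242. From 3 to 6 weeks (5818): weights 11682, arrays left out 3641 to 9334.

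Counts among the 9 antioxidant genes are given here with those of all 19938 genes where these moved too. In Mo at 6 weeks (6) they were 3 by joint quantile (all genes 5241) and 3 to 6 by arrays left out (all genes 4475 to 10640). In Mo at 3 weeks (1) they were 2 centred, 2 with the mean of features, 0 by joint quantile (all genes 354) and 0 with the floor (all genes 115). They were 4 with dim genes out (all genes 1870) and 0 in the subset only (all genes 2). With weights they were 8, where 15177 of all genes passed. With the replicate block they were 6, Cat, Gclm, Gsr, Gpx1, Prdx1 and Txnrd1, where 5302 of all genes passed. Arrays left out gave 0 to 7 (all genes 16 to 8911). In Mo from 3 to 6 weeks (2) they were 1 in the subset only (all genes 877) and 5 with weights (all genes 7809). Arrays left out gave 1 to 3 there (all genes 1000 to 2803). In the difference from naive to 3 weeks (0) they were 5 with weights (all genes 8561) and 1 with the replicate block (all genes 1027). Without Mo 3-week replicate 1 they were 2 in that difference (all genes 3242). In the difference from 3 to 6 weeks (4) arrays left out gave 2 to 6 (all genes 3641 to 9334). With the replicate block Txnrd1 (limma adjusted p = 0.0217) and Gclm (limma adjusted p = 0.0372) passed as well in that difference. The replicate block also ended the call of Cat in PMN at 6 weeks (0.30, limma adjusted p = 0.0705). The call of Cat between 6 and 3 weeks in PMN ended under 7 alternatives.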
